A study of Mus musculus with 22 samples.

Results

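Nuclear-encoded genes of the respiratory chain and ATP synthase were examined in mouse small intestinal organoids exposed to cold atmospheric plasma (CAP). Members were the genes whose symbol begins with Nduf followed by a, b, c, s or v and a digit, the genes Sdha to Sdhd, the Uqcr genes, Cyc1, the Cox4 to Cox8 genes and the Atp5 genes, without pseudogene names. This gave 85 members among the 52636 genes of the expression table, of which 35 were assigned to complex I, 4 to complex II, 9 to complex III, 20 to complex IV and 17 to complex V. Of the 20 complex IV members, 8 are isoforms known for restricted tissues and 1 (Cox7a2l) is a supercomplex factor. Of the 17 complex V members, 2 (Atp5s and Atp5sl) are not structural subunits and are placed there by symbol. Counts and medians by complex include these genes where they were tested. Expression did not enter the choice.

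The mitochondrial respiratory chain passes electrons from NADH and succinate through complexes I to IV to oxygen and pumps protons, and complex V (ATP synthase) uses the proton gradient to make ATP. Most subunits are encoded in the nucleus and imported, and a small core is encoded by mitochondrial DNA, so that assembly needs both genomes. In the intestinal crypt both stem cells and differentiated cells use oxidative phosphorylation, and the chain is also a source of reactive oxygen species within the cell.

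The series held 22 RNA-seq libraries from organoid lines grown from the adult duodenal epithelium of wild-type mice. CAP is an ionised helium jet that produces reactive oxygen and nitrogen species in the liquid it meets. Each line came from 1 mouse, and line 1 was at passage 12, line 2 at passage 14 and lines 3 and 4 at passage 4. The untreated group had lines 1, 2, 3 and 4 (n = 4), and each of the 6 treated groups had lines 1, 2 and 4 (n = 3). In the direct groups CAP was applied to the culture itself, with a labelled time of 30 minutes (direct 30 min) or 24 hours (direct 24 h) before the medium was replaced. In the indirect groups unexposed organoids received medium taken from a CAP-treated organoid culture, and in the PAM groups they received plasma-activated medium that had held no cells. The study's methods describe the day 1 groups (indirect day 1 and PAM day 1) as exposed on the day after replating, then kept in fresh medium until day 3, and the day 2 groups as exposed until harvest on day 3. The labels give 30 minutes for both of these day 1 groups and 24 hours for both day 2 groups, so the length of exposure differs between these sources, and the groups are named here by their start. The labels call the cells stem cells, but organoids hold several epithelial cell types.

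Each library was deposited as whole numbers that sum to 20007540 to 20016513, that is, counts scaled to nearly the same total in each library and not divided by gene length. These are called values here, and their true sequencing depth is unknown. Epithelial markers (Epcam, Cdh1, Vil1 and others) took 0.628% of the untreated total, whereas immune markers took at most 0.00078% and fibroblast, endothelial and muscle markers at most 0.00014% in any library. The summed stem cell markers (Lgr5, Olfm4, Ascl2, Smoc2 and Axin2) ranged from 0.163 to 0.194% in untreated libraries, from 0.0135 to 0.0198% in indirect day 2 and from 0.00378 to 0.0137% in PAM day 2. Proliferation markers ranged from 0.111 to 0.146%, from 0.0429 to 0.0532% and from 0.021 to 0.0425% in the same groups. After group means were removed, 19 of 21 libraries correlated best with libraries of their own line. The exceptions were the libraries labelled untreated line 1 and untreated line 2, whose best match was each other's line, so results are also given without each library.

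Only fold changes past the test are described as rises or falls. A member was called when its adjusted p was under 0.05 in limma's moderated test on log2(value + 1), with Benjamini-Hochberg adjustment over all genes that reached a value of 10 in at least 3 of the libraries compared. Fold changes are on this log2(value + 1) scale. All comparisons with untreated share the same 4 untreated libraries.

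Shown here are the 250 bases before the RefSeq start of 4 members in GRCm38.p6, all on the minus strand and written 5′ to 3′ on it. Promoters of respiratory chain genes are known for sites of the factors NRF-1 and GABPA. Uqcr11 and Uqcrh, small subunits of complex III, and Atp5k, the e subunit of ATP synthase, were past a log2 fold change of -1 in both day 2 comparisons. Cox6a1, a complex IV subunit that was not called in any comparison, is shown beside them. Among members past -1 in PAM day 2 alone, Ndufc2, Atp5g1 and Atp5g3 had neither core described below. No promoter was found for Cox6c, which was also past -1 there. Capitals mark an NRF-1 core (GCGCATGC, which overlaps itself on the opposite strand in Atp5k and Cox6a1) or an ETS core of the GABPA kind (CCGGAAG, read on the opposite strand as CTTCCGG).
Uqcr11, chr10:80406822-80407071, minus strand: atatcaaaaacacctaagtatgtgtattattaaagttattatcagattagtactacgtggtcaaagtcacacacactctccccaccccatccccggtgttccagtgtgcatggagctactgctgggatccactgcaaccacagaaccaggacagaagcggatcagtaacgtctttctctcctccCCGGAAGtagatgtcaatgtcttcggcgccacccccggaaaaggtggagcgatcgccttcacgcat
Uqcrh, chr4:116075071-116075320, minus strand: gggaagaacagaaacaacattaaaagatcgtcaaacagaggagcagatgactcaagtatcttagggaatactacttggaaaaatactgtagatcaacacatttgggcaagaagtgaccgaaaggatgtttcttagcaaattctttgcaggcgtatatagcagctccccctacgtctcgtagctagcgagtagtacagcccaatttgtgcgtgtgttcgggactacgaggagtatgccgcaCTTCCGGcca
Atp5k, chr5:108434400-108434649, minus strand: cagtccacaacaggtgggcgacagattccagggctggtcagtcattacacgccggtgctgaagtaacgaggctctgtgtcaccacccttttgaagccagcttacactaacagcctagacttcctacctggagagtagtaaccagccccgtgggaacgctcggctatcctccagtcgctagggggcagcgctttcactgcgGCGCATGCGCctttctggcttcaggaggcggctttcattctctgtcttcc
Cox6a1, chr5:115348959-115349208, minus strand: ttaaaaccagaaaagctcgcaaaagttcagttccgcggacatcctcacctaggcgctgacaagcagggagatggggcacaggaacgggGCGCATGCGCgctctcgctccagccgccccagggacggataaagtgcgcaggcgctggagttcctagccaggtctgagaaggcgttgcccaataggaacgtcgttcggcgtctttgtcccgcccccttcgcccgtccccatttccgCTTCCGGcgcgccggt

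A promoter was found for 69 of the 85 members, and each motif was searched on both strands of the same 250 bases. The NRF-1 core was present in 8 members (11.6%) and in 2.32% of all 27025 promoters. The GABPA core was present in 11 members (15.9%) and in 7.05% of all. The GC box GGGCGG was present in 25 members (36.2%) and in 32.9% of all, and the YY1 core AAGATGGC in 0 members and 1.59% of all. The 8 members with the NRF-1 core did not move alike in PAM day 2, where their log2 fold changes ran from -1.15 for Atp5k, -0.90 for Ndufa8 and -0.83 for Atp5g2 to 0.03 for Ndufa6 and 0.15 for Cox6a1. Neither fold change of the last 2 passed the test. A match of letters is a description of the sequence and was not tested as a binding site.

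In untreated organoids the members together took 1.35% ± 0.0534 (SD, n = 4) of all counts. Divided by the length of the reference transcript, the highest untreated levels were those of the catalytic beta subunit of ATP synthase, Atp5b (16405 per kilobase), and its alpha subunit Atp5a1 (10694 per kilobase). Next came Cox4i1, a structural subunit of cytochrome c oxidase (10484 per kilobase), Uqcrq of complex III (9885 per kilobase) and Atp5g3, which encodes the membrane ring subunit c (9624 per kilobase). The median level of the members with an untreated mean of 100 or more was 1987 per kilobase over 35 complex I genes, 3298 over 4 complex II genes, 4568 over 9 complex III genes, 5432 over 13 complex IV genes and 3694 over 17 complex V genes. The restricted isoforms were at the bottom. Cox7b2 and Cox8c were listed at 0 in all 22 libraries, Cox4i2 (the hypoxia-associated and lung isoform) at 0 to 10, Cox6a2 and Cox8b (heart and muscle isoforms) at 0 to 6 and 0 to 5, Ndufa4l2 at 2 to 13 and Cox6b2 (a testis isoform) at 2 to 30. Cox7a1, a heart and muscle isoform, was the exception, at 195, 127, 140 and 72 in untreated lines 1 to 4.

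The members' share of all counts was 1.16% in direct 30 min, 1.35% in direct 24 h, 1.16% in indirect day 1, 1.11% in PAM day 1 and 1.07% in both indirect day 2 and PAM day 2 (n = 3 each). In indirect day 2 the 3 libraries were at 1.06, 1.06 and 1.08%, below all 4 untreated libraries, which ranged from 1.28 to 1.41%. In direct 24 h the 3 libraries ranged from 1.25 to 1.45% and overlapped the untreated group. In bulk samples, fewer cells of a type and less RNA per cell cannot be told apart, and neither can be told from a larger total of other transcripts.

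**Figure D1:**
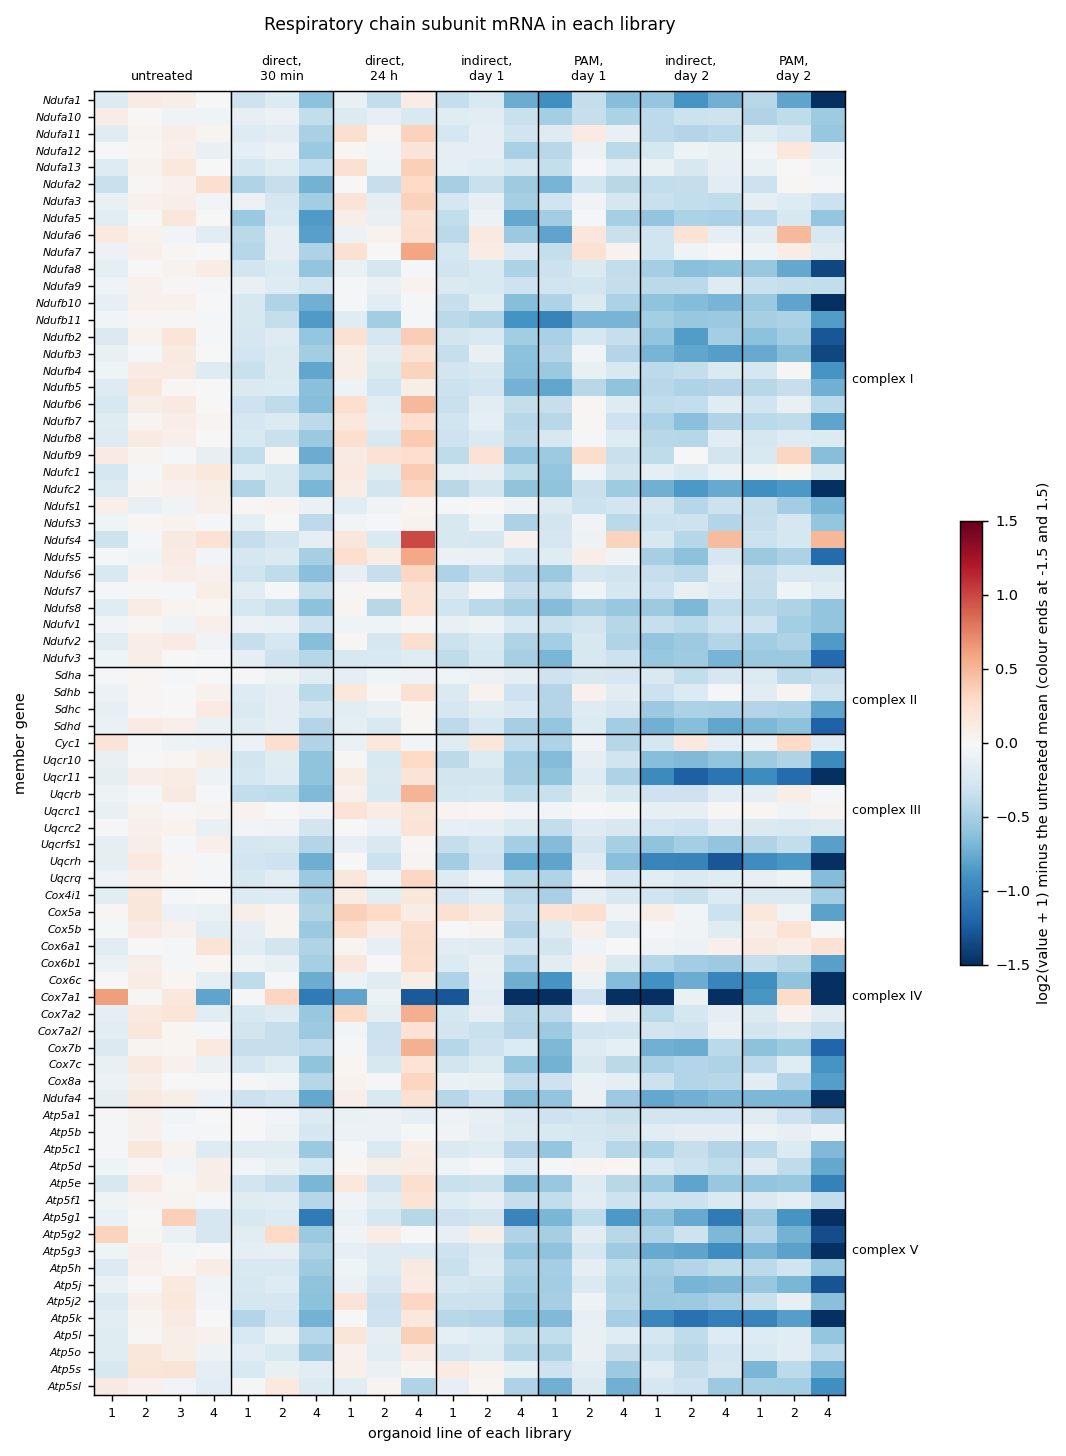
Heat map of 77 of the 78 members with an untreated mean of 100 or more. Rows are genes ordered by complex, columns are the 22 libraries with their line number, and colour is log2(value + 1) minus the mean of the 4 untreated libraries, ending at -1.5 and 1.5. The group mean of the library medians over the 78 members was -0.39 in indirect day 2, -0.44 in PAM day 2 and 0.02 in direct 24 h. Single libraries crossed this order, and direct 30 min line 4, at -0.53, was lower than each indirect day 2 library.

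The first question was whether plasma products given from day 1, for what the methods describe as 24 h and by any route, altered the subunit mRNAs. With direct 24 h, indirect day 1 and PAM day 1 pooled (9 libraries against 4), 9 of 79 members tested fell (11.4%) and 0 rose. The 9 treated libraries came from lines 1, 2 and 4 only, and this fit took them as independent, so its adjusted p can be too small. Of all 18490 genes tested, 18.7% fell and 14.8% rose, so the share of members that fell was below that of the table. The fallers included Ndufb11, Ndufa10, Ndufa8 and Ndufv3 of complex I, Sdhd of complex II, Uqcrfs1 (the Rieske iron-sulfur protein) of complex III, and Atp5g1 and Atp5g3 of complex V, and the median over all members tested was -0.20 (all genes -0.05). Ndufb11, an accessory subunit of the membrane arm, was at 1749, 1846, 1833 and 1788 in untreated lines 1 to 4 and had a log2 fold change of -0.54 (SE 0.15, limma adjusted p = 0.0134), with 8 of 9 treated libraries under every untreated one. With the organoid line as a block, 6 members were called, and Sdhd (adjusted p = 0.0843), Uqcrfs1 (0.0595) and Atp5g1 (0.0579) were no longer among them. The count fell to 3 without untreated line 2 (Ndufb11, Ndufa10 and Ndufv3) and 5 without untreated line 3, and grew to 15 without direct 24 h line 1 and 29 without direct 24 h line 4.

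The pooled groups were also compared with untreated one by one. In direct 24 h, 0 of 79 members were called by limma, although 10.2% of all 17335 genes fell and 7.05% rose. An unadjusted limma p under 0.05 was found for 4 members and for 5658 of all genes tested. The member median was 0.03, and 34 of 79 fold changes were negative. Uqcr11 was at 2185, 1749 and 2311 in the direct 24 h lines 1, 2 and 4, spanning the untreated values of 1847, 2168, 2195 and 1921, and Ndufc2, an accessory subunit of the membrane arm of complex I, was at 1370, 1047 and 1582 against 1099, 1303, 1331 and 1357. A p that misses the threshold does not show that values did not differ. The count was 0 in each refit that left out a library except without direct 24 h line 2, where Ndufa7 alone was called, with a log2 fold change of 0.41 (adjusted p = 0.0487).

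In direct 30 min, 0 of 79 members were called by limma, and of all 17731 genes 0% fell and 0.00564% rose, so almost no gene of the table was called. Of the 79 members, 78 had a negative fold change, and the median was -0.30 while that of all genes was 0.02. An unadjusted limma p under 0.05 was found for 54 members and for 4415 of the 17731 genes tested. The median deviation of the members from the untreated mean was -0.23, -0.19 and -0.53 in lines 1, 2 and 4. In the same comparison the median was -0.38 over 73 abundant ribosomal protein genes and -0.29 over 255 other abundant genes with short coding sequences, so the members' median lay between those of these groups.

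In indirect day 1, 27 of 79 members fell (34.2%) and 0 rose, against 10.4% lower and 10.2% higher among all 17818 genes. Among the 11631 other genes with an untreated mean of 100 or more, closer to the members in abundance, 14.5% fell. Of the 73 abundant ribosomal protein genes 35.6% fell, and of the 255 other abundant genes with short coding sequences 41.6%. Both shares were above that of the members. By complex, 13 of 35 members of complex I fell, 1 of 4 of complex II, 5 of 9 of complex III, 2 of 14 of complex IV and 6 of 17 of complex V, and the member median was -0.28 (all genes 0.00). Ndufb11 was at 1359, 1316 and 968, below all 4 untreated libraries, with a log2 fold change of -0.59 (SE 0.12, adjusted p = 0.0148). With the line as a block 12 members were called, 11 lower and 1 higher. The one called higher was Cox6b2, at 2 to 18 in untreated and 9 to 30 in indirect day 1. The count dropped to 3 without untreated line 2 (Ndufb11, Ndufv3 and Atp5k), 8 without untreated line 3, 6 without untreated line 4, 9 without indirect day 1 line 1 and 4 without indirect day 1 line 4 (the same 3 genes and Uqcrh).

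In PAM day 1, 42 of 78 members fell (53.8%) and 0 rose, against 26.6% lower and 15.2% higher among all 17357 genes and 34.1% lower among the 11631 other genes of that abundance. The share that fell was 95.9% of the 73 ribosomal protein genes and 53.3% of the 255 other short genes. The falls comprised 18 of 35 members in complex I, 3 of 4 in complex II, 5 of 9 in complex III, 5 of 13 in complex IV and 11 of 17 in complex V, and the median was -0.32 (all genes -0.13). Ndufb11 was at 901, 1116 and 1112, below every untreated library, and fell by 0.80 on the log2 scale (SE 0.09, adjusted p = 0.000483). Cox7a1 was at 21, 101 and 36 against 195, 127, 140 and 72 in untreated, so 1 PAM library lay within the untreated range, and its log2 fold change of -1.54 had adjusted p = 0.0429, or 0.0893 with the line as a block. The count was 24 without untreated line 2, 26 without untreated line 3, 25 without PAM day 1 line 1 and 16 without PAM day 1 line 4.

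PAM day 1 was also compared with direct 24 h, which does not use the untreated libraries. Here 0 of 79 members were called by limma, with 0.246% of all 17072 genes lower and 0.0117% higher. All 79 fold changes were negative with a median of -0.33 (all genes -0.04). The medians of the ribosomal protein genes (-0.42) and of the other short genes (-0.28) lay on either side.

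**Figure D2:**
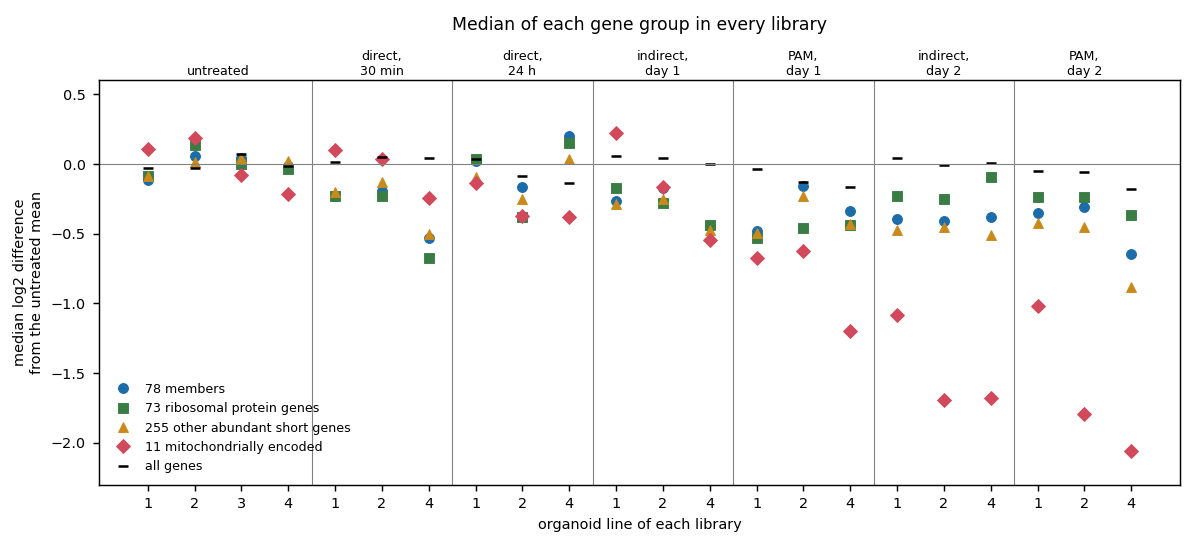
Median log2 difference from the untreated mean in each of the 22 libraries (line number on the horizontal axis) for 78 members, 73 ribosomal protein genes, 255 other abundant short genes, 11 mitochondrially encoded genes and all genes. The member medians of the 3 indirect day 2 libraries lie between -0.41 and -0.38, and the mitochondrially encoded genes lie below them at -1.69 to -1.08.

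In indirect day 2, 57 of 78 members fell and 0 rose. Among all 17860 genes 23.5% fell and 20.3% rose, and among the 11631 other genes with an untreated mean of 100 or more 31.0% fell. The median of the members was -0.36 (all genes -0.01), and 78 of 78 fold changes were negative. In PAM day 2, 47 of 78 members fell (60.3%) and 0 rose, against 29.1% lower and 18.5% higher among all 17694 genes and 36.8% lower among the 11631 others, with a member median of -0.42 (all genes -0.12). At a stricter limit, the log2 fold change had to be -1 or less and the adjusted p under 0.01. In indirect day 2, 3 of 78 members passed it (Uqcr11, Uqcrh and Atp5k), where 5.71% of all genes did. In PAM day 2 these and Ndufc2, Cox6c and Atp5g3 passed, 6 of 78 in all, where 10.5% of all genes did. In both groups the share of members that passed was below that of all genes. Without untreated line 1 or line 2, the libraries whose lines cross in the check above, 58 and 47 members were called in indirect day 2 and 48 and 37 in PAM day 2.

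In PAM day 2 the largest called fall of any member was in complex III. Uqcr11, a small subunit next to the Rieske protein (chr10:80402997-80406830, minus strand), was at 1847, 2168, 2195 and 1921 in untreated lines 1 to 4, at 1047, 866 and 951 in lines 1, 2 and 4 of indirect day 2, and at 1051, 910 and 444 in PAM day 2. The treated and untreated values did not overlap. The log2 fold change was -1.09 (SE 0.10, adjusted p = 0.000114) in indirect day 2 and -1.43 (SE 0.27, adjusted p = 0.00362) in PAM day 2, where line 4 was the lowest. Uqcrh, the hinge protein that holds cytochrome c1 (chr4:116066965-116075071, minus strand), was at 2549, 3117, 2880 and 2758 in untreated, 1422, 1405 and 1153 in indirect day 2 and 1475, 1533 and 678 in PAM day 2. On the log2 scale it fell by 1.09 (SE 0.10, adjusted p = 0.000138) in indirect day 2, and its log2 fold change was -1.29 (SE 0.27, adjusted p = 0.00552) in PAM day 2, again with no overlap. Uqcrfs1 fell with log2 fold changes of -0.57 and -0.54. Uqcrc1 and Cyc1 were not called in either group. Uqcrc1, the core protein of the matrix arm, averaged 10349 ± 553 (SD, n = 4) in untreated and 10366 ± 354 (SD, n = 3) in PAM day 2, a log2 fold change of 0.00 (SE 0.09, adjusted p = 0.977), and Cyc1, cytochrome c1, had 0.02 (SE 0.13, adjusted p = 0.927). Within complex III, 7 of 9 members fell in indirect day 2 and 4 of 9 in PAM day 2, and the medians were -0.26 and -0.29.

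**Figure D3:**
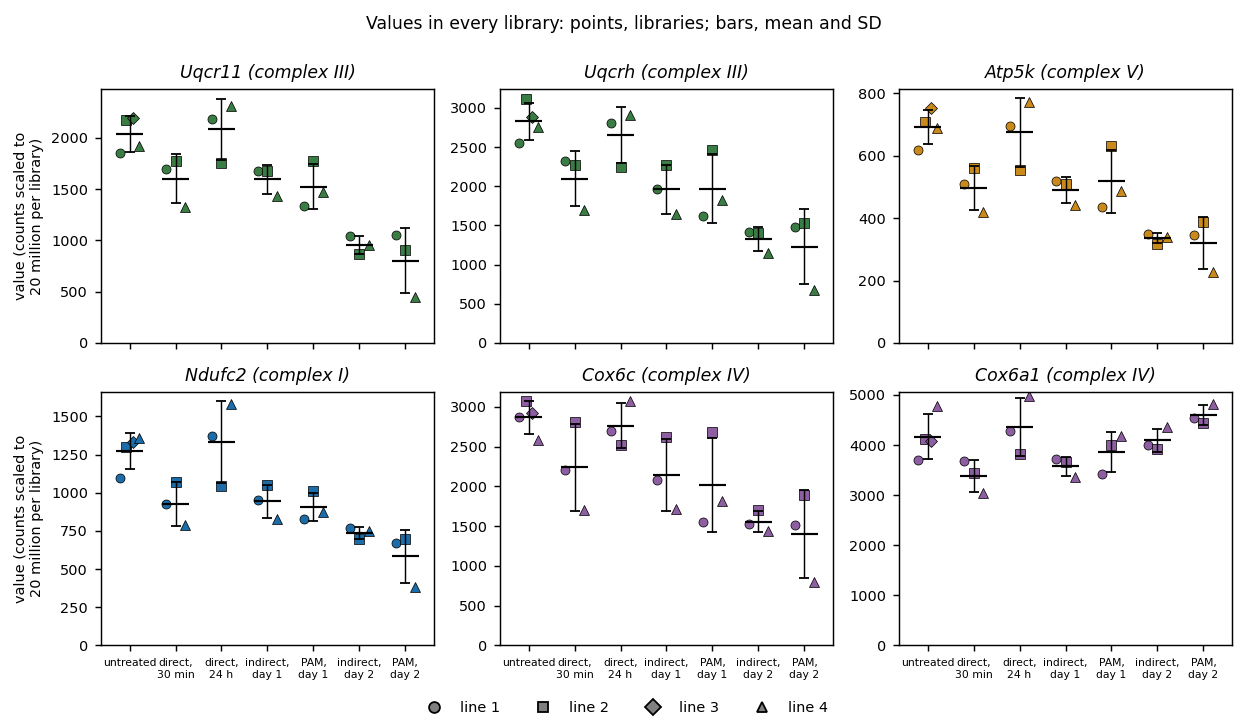
Values (scaled counts) of Uqcr11, Uqcrh, Atp5k, Ndufc2, Cox6c and Cox6a1 in every library by group. Point shape marks the organoid line and bars give the mean and SD (n = 4 untreated, n = 3 treated). In the first 5 panels the indirect day 2 and PAM day 2 points lie below all untreated points, while Cox6a1 overlaps.

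Complex V had 15 of 17 members lower in indirect day 2 and 13 in PAM day 2, with medians of -0.42 and -0.45. Atp5k (chr5:108433244-108434448, minus strand), a membrane subunit involved in dimer formation, was at 620, 708, 754 and 688 in untreated, 350, 318 and 340 in indirect day 2 and 345, 388 and 226 in PAM day 2, with no overlap. Its log2 fold changes were -1.04 (SE 0.09, adjusted p = 0.000125) and -1.15 (SE 0.19, adjusted p = 0.00197). The 3 genes of subunit c encode the same mature protein, and all 3 fell in both groups. Atp5g3, the most abundant of them, was at 6565, 7231, 6796 and 6895 in untreated, 4078, 3966 and 3609 in indirect day 2 and 4243, 3930 and 2270 in PAM day 2. Its log2 fold changes were -0.82 (adjusted p = 0.00011) and -1.03 (SE 0.20, adjusted p = 0.00422). Atp5g1 was at 2618, 2795, 3609 and 2360 in untreated and at 1930, 1523 and 670 in PAM day 2, and fell by 1.16 (SE 0.33, adjusted p = 0.0214), which became 0.0531 without untreated line 3. Line 4 was far below the other treated libraries, and without it the log2 fold change was -0.71 (adjusted p = 0.0138). Atp5g2 had log2 fold changes of -0.48 and -0.83. Sequence shared with other genes covered 57.3% of 100-base windows of Atp5g1, 100% of Atp5g2 and 0% of Atp5g3, so the values of the first 2 are uncertain. The same share was 0% for Uqcr11, Uqcrh, Atp5k and Ndufc2 and 11.4% for Cox6c. Of the 5 genes of the catalytic F1 head, 4 fell in each day 2 group and Atp5b was not called in either. Atp5b was at 30750, 32784, 31120 and 31076 in untreated and at 29701, 28768 and 30448 in PAM day 2, all 3 below the untreated range, with a log2 fold change of -0.08 (SE 0.09, adjusted p = 0.475).

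Complex II links the citric acid cycle to the chain. Both membrane anchors and 1 of its 2 soluble subunits fell in each day 2 group, with medians over the 4 genes of -0.40 and -0.44. Sdhd, the small anchor, was at 4593, 5381, 5213 and 4626 in untreated, 2986, 3173 and 2867 in indirect day 2 and 3101, 3222 and 2128 in PAM day 2, with no overlap, and its log2 fold changes were -0.72 and -0.83. Sdhc, the large anchor, fell as well, with log2 fold changes of -0.51 and -0.57. Sdha, the flavoprotein that oxidises succinate, was at 9061, 9302, 9044 and 9155 in untreated, 7816, 7064 and 7672 in indirect day 2 and 7935, 6977 and 7213 in PAM day 2. Its log2 fold changes were -0.28 (adjusted p = 0.0101) and -0.31 (adjusted p = 0.0157), with adjusted p = 0.0708 in PAM day 2 when the line was a block. Sdhb, the iron-sulfur subunit, was not called in any comparison and had log2 fold changes of -0.19 and -0.14.

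Complex I had 25 of 35 members lower in indirect day 2 and 20 in PAM day 2, with medians of -0.35 and -0.40. Of the 7 nuclear genes for its catalytic core, 6 fell in each group. The log2 fold changes in indirect day 2 and PAM day 2 were -0.35 and -0.47 for Ndufv1, which binds NADH, -0.53 and -0.61 for Ndufv2, -0.34 and -0.52 for Ndufs1 and -0.53 and -0.49 for Ndufs8, while Ndufs7 had -0.21 (adjusted p = 0.0506) and -0.19 (adjusted p = 0.13). Among the 28 accessory subunits 19 fell in indirect day 2 and 14 in PAM day 2. Ndufc2 (chr7:97400003-97407802, plus strand) was at 1099, 1303, 1331 and 1357 in untreated, 772, 695 and 750 in indirect day 2 and 670, 697 and 384 in PAM day 2, without overlap. Its log2 fold change was -0.78 in indirect day 2 and -1.17 in PAM day 2 (SE 0.21, adjusted p = 0.00292). Ndufb10 fell with -0.65 and -0.96 and Ndufa8 with -0.58 and -0.90. At the other end Ndufs4, Ndufa12, Ndufa6 and Ndufa7 had log2 fold changes in PAM day 2 of -0.03, -0.01, 0.03 and -0.04, none of which passed the test.

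Complex IV, cytochrome c oxidase, had 7 of 13 tested members lower in each day 2 group, with medians of -0.39 and -0.47. Cox6c (chr15:35925886-35938246, minus strand), a small membrane subunit, was at 2873, 3080, 2928 and 2589 in untreated, 1528, 1705 and 1441 in indirect day 2 and 1509, 1889 and 798 in PAM day 2, without overlap. Its log2 fold change was -0.88 in indirect day 2 and -1.12 in PAM day 2 (SE 0.26, adjusted p = 0.00873). Ndufa4, long assigned to complex I and now to complex IV, fell with log2 fold changes of -0.72 and -0.96, Cox7b with -0.62 and -0.78 and Cox6b1 with -0.50 and -0.53. Cox5a and Cox5b, which bind the matrix side of the catalytic core, had -0.23 (adjusted p = 0.387) and 0.10 (adjusted p = 0.415) in PAM day 2, and Cox6a1 was at 3704, 4120, 4080 and 4772 in untreated and 4547, 4436 and 4824 in PAM day 2, overlapping, with 0.15 (adjusted p = 0.263).

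**Figure D4:**
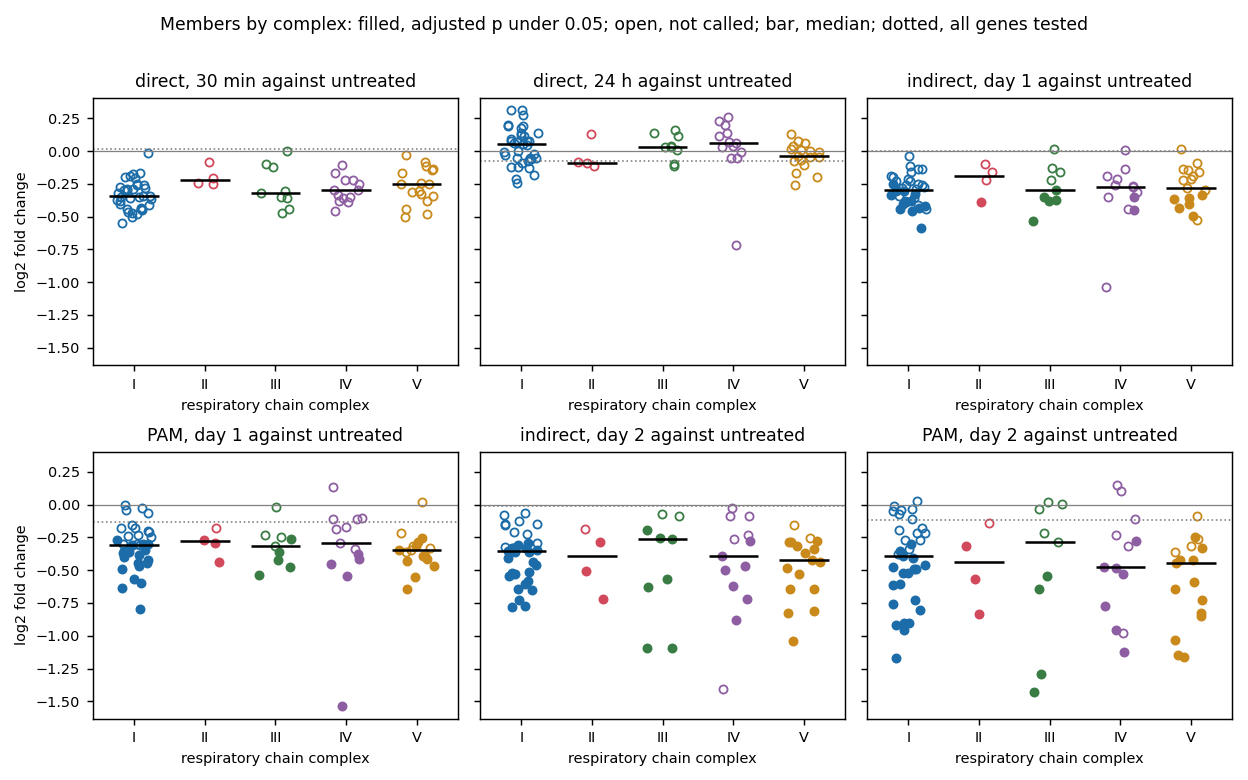
Log2 fold change of each member against untreated, by complex, in the 6 treated groups. Filled points have an adjusted p under 0.05, open points were not called, the bar is the median of the complex and the dotted line the median of all genes tested. No filled point lies above 0, and direct 30 min and direct 24 h have no filled point.

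The difference between starting on day 1 and on day 2 was tested directly. For indirect exposure, 2 of 80 members were lower on day 2 (2.5%) and 0 higher, against 2.21% lower and 1.16% higher among 17987 genes, so the share of members was close to that of the table. Uqcr11 averaged 1594 ± 142 (SD, n = 3) in indirect day 1 and 955 ± 90.6 (SD, n = 3) in indirect day 2, with a log2 fold change of -0.74 (adjusted p = 0.0266). Atp5k was at 518, 510 and 444 in indirect day 1, above the 350, 318 and 340 of day 2, with -0.54 (adjusted p = 0.0468). The count was 0 without indirect day 1 line 1 or line 2, 4 without its line 4, 1 (Uqcr11) without indirect day 2 line 1, 0 without its line 2 or line 4, and 15 with the line as a block. For PAM, 0 of 78 members were called by limma between day 2 and day 1, as were 0% of 17354 genes in the lower and 0% in the higher direction. The start of exposure, its labelled length and the time in fresh medium cannot be told apart in these comparisons.

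Other genes of the pathway were read from lists of known function. Of the 13 subunits encoded by mitochondrial DNA, 10 were tested in indirect day 2 and 11 in PAM day 2, and 10 fell in each, with medians of -1.67 and -1.62, further from 0 than any complex of nuclear members. The mitochondrial gene mt-Nd5, a proton-pumping subunit of complex I, averaged 24593 in untreated, 7357 in indirect day 2 and 7024 in PAM day 2, log2 fold changes of -1.75 (adjusted p = 4.03e-05) and -1.84 (adjusted p = 0.000348). The genes mt-Co2, mt-Co3, mt-Atp6 and mt-Nd3 averaged 8.5 to 14.75 in untreated, far below the rest. Those of them that passed the low-value filter are in the counts and medians of this list. The shares to read these lists against are the 31.0% and 36.8% of the 11631 other genes with an untreated mean of 100 or more that fell in indirect day 2 and PAM day 2. Of 46 assembly factors, 17 fell (37.0%) and 1 rose in indirect day 2 and 19 fell (41.3%) and 2 rose in PAM day 2, close to those shares, with medians of -0.26 and -0.34. Of 6 subunits or inhibitors of the chain whose symbols lie outside the rule, 4 fell (66.7%) and 3 fell (50%), among them Atpif1, the inhibitor of ATP synthase, with log2 fold changes of -0.78 and -0.88. Of 18 citric acid cycle and pyruvate dehydrogenase genes, 10 (55.6%) and 9 (50%) fell and 1 rose in each, and of 10 coenzyme Q synthesis genes 5 (50%) and 6 (60.0%) fell and 0 rose. Coq8a, an atypical kinase needed for coenzyme Q, averaged 2233 in untreated, 344 in indirect day 2 and 229.7 in PAM day 2, and its log2 fold changes were -2.80 and -3.48.

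Of 15 regulators of mitochondrial biogenesis, 7 fell (46.7%) and 2 rose in indirect day 2 and 8 fell (53.3%) and 1 rose in PAM day 2. Tfam, which packages mitochondrial DNA, averaged 1518 in untreated, 742.7 in indirect day 2 and 572.7 in PAM day 2, with log2 fold changes of -1.03 (adjusted p = 4.65e-05) and -1.43 (adjusted p = 0.000412). Gabpa, the DNA-binding part of GABP, fell with -0.53 and -0.56, whereas Nrf1 had 0.00 (adjusted p = 0.997) and 0.01 (adjusted p = 0.92). Ppargc1a, a coactivator of mitochondrial biogenesis, moved the other way, averaging 136.8 in untreated, 465.7 in indirect day 2 and 445 in PAM day 2, and rose by 1.79 and 1.71. Of 6 enzymes that feed electrons in outside complexes I and II, 5 fell and 1 rose in each group. The riser was Gpd2, the glycerol-3-phosphate dehydrogenase of the inner membrane, with log2 fold changes of 1.25 and 1.55, and Prodh, proline dehydrogenase, had -1.11 and -2.18. Among 6 carriers and channels tested, 4 fell in each group and 0 and 1 rose, and Slc25a4, an ADP/ATP carrier, had log2 fold changes of -1.12 and -2.06.

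Other small abundant transcripts moved beside the members. In indirect day 2 the median was -0.20 over 73 ribosomal protein genes and -0.45 over 255 other abundant genes with coding sequences of at most 450 bases, and in PAM day 2 it was -0.28 and -0.62, with the members at -0.36 and -0.42. Within the members, those with a short coding sequence (34 genes) had medians of -0.40 and -0.35 and those with a longer one (32 genes) -0.34 and -0.41. Cell type markers moved too. Of 5 stem cell markers, 5 fell in PAM day 1 and in both day 2 groups and 4 fell in indirect day 1. In direct 24 h, where 0 of 79 members were called, 4 of the 5 also fell, with a median of -1.89. Of 6 proliferation markers, 6 fell in PAM day 1 and in both day 2 groups and 3 in direct 24 h and in indirect day 1. Of 5 Paneth cell markers, 4 fell in direct 24 h, indirect day 1, PAM day 1 and PAM day 2 and 3 in indirect day 2. Of 5 goblet cell markers, 3 fell in PAM day 2 (median -1.19) and 1 in indirect day 2, whereas 2 rose in direct 24 h. In PAM day 1, 2 of them rose and 1 fell. Of 8 enterocyte markers, 3 fell and 1 rose in indirect day 2 and 2 fell and 1 rose in PAM day 2, and of 8 general epithelial markers 3 fell and 4 rose and 2 fell and 5 rose. The part of coding length and of these cell types in the member falls was not tested.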

How the data were processed

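RNA-seq of 22 organoid libraries, made with the Ovation SoLo kit according to the labels, was analysed. Per the submitters' processing notes the reads were trimmed with Trimmomatic 0.36, aligned to the mouse genome GRCm38 with STAR 2.5.3a and counted per gene with HTSeq 0.9.1. The authors deposited 1 table of whole numbers, handled here as a score, since each column sums to nearly the same total. The authors describe the unit as also per kilobase, but low values are spaced by 1 factor per library for all genes, as counts scaled by library would be. That spacing gave a best factor of 0.6975 to 1.0665 in 15 libraries and of 0.456 to 0.487 in the other 7. The best factor was not clear in every library. In PAM day 2 line 1 its correlation was 0.188, against 0.176 for the next factor. Depth is therefore taken as unknown, no counting interval is given and no count model was run. The planned count test was therefore replaced by its stated alternative, limma 3.58.1 in R 4.3.3 (empirical Bayes with a mean trend) on log2(value + 1), with genes kept that reached 10 in 3 or more libraries and only the compared groups in each fit. An adjusted p under 0.05 over all genes tested was a call. The procedure was also run on simulated data, which held no line effect and so do not cover the pairing of lines. Values were handled with pandas 2.3.3 and numpy 2.4.6 in Python 3.11.15 and drawn with matplotlib 3.10.9.

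Same-numbered samples come from the same mouse, so the line pairs the samples by design. Deviations from group means correlated at 0.467 on average over 63 same-line pairs (lowest -0.105) and at -0.2 over 144 other pairs, across genes. No 2 libraries were identical. The alternatives tried were the line as a block, 1 fit over all 7 groups, a pseudocount of 10, quantile normalization, no low-value filter, the study's threshold (log2 fold change of 1 or more in size, adjusted p under 0.01) and leaving out each library.

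Values per library are given for the called member with the largest rise and fall in each complex in the pooled and PAM day 2 comparisons (in complex IV of the pooled one, where none was called, the largest difference), all Sdh genes, the Atp5g genes, members past the study's threshold and the restricted isoforms. Other members named with values, the comparison groups of ribosomal and short genes, the split of complex I and complex V, and the group of genes with an untreated mean of 100 or more were chosen after values were seen. The members and lists were chosen with earlier results of these data known. The values of 1 member are not reported here singly, though it is in the counts and medians. Promoters came from RefSeq on GRCm38.p6, and transcript and coding lengths from GENCODE on GRCm38.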

Additional observations from a re-analysis of the deposited data

Results flagged for a closer look

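Uqcr11 and Atp5k differed between the 2 indirect groups in a direct test of day 2 against day 1. The log2 fold change was -0.74 for Uqcr11 (limma adjusted p = 0.0266) and -0.54 for Atp5k (limma adjusted p = 0.0468), with the 3 day 2 libraries below the 3 day 1 libraries for both genes. The share of members called lower was close to the 2.21% of all genes called lower. Both calls were lost in several refits that left out a single library. Among the 16 values examined in the untreated group, 0 had a library far from the other 3 by Dixon's test.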

How the results depend on the processing

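The number of members called against untreated was 9 for the pooled day 1 groups, and with all 7 groups in 1 fit it was 19. In that fit indirect day 1 gave 9 (27 in the pairwise fit), indirect day 2 against day 1 gave 0 (2) and PAM day 2 against day 1 gave 14 (0). Under the study's threshold the counts were 0 for the pooled groups, 0 for indirect day 1, 0 for PAM day 1, 3 for indirect day 2, 6 for PAM day 2 and 0 for indirect day 2 against day 1. Quantile normalization and no filter each left 1 member (Uqcr11) called in indirect day 2 against day 1.

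With the line entered as replicate block, indirect day 1 had 12 members called and indirect day 2 against day 1 had 15. The block also ended the calls of Sdhd, Uqcrfs1 and Atp5g1 in the pooled comparison and of Sdha in PAM day 2, and changed no other count by over 1.5 times.

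Leaving out each library in turn gave 3 to 29 members called in the pooled comparison, 0 to 1 in direct 24 h, 3 to 35 in indirect day 1, 16 to 53 in PAM day 1, 47 to 58 in indirect day 2, 37 to 48 in PAM day 2 and 0 to 4 in indirect day 2 against day 1. Direct 30 min and PAM day 1 against direct 24 h stayed at 0 under each setting run. The called members refitted one by one (5 in the pooled comparison and 13 in PAM day 2) kept their direction in each refit. Medians near 0 did not, and ran from -0.06 to 0.11 in direct 24 h and from -0.16 to 0.01 in PAM day 2 against day 1. Why a count moved was not tested. With 3 or 4 libraries a group and depth unknown, small differences could be missed.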
